A study of Bos taurus with 8 samples.

Results

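The circadian clock genes of granulosa cells were compared between plateau (P) and growing (G) bovine dominant follicles. The genes were chosen by name, as core components and first outputs of the clock. They were PER1, PER2, PER3, CRY1, CRY2, ARNTL, CLOCK, NR1D1, DBP and BHLHE40. Of these 10 genes, 9 were represented on the microarray, by 12 of its 43794 probes. CLOCK was not analysed here because no probe carried its name. BHLHE40 was carried under its older symbol BHLHB2. The reference gene table lists that symbol for 3 genes, and the other two had probes of their own under their own older names, so the BHLHB2 probes were read as BHLHE40.

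The clock is a feedback loop of transcription that runs in most cells of the body and gives their gene expression a daily rhythm. ARNTL (also called BMAL1) pairs with CLOCK, or with its relative NPAS2, and the pair activates the PER and CRY genes, whose proteins build up and then repress it. NR1D1 (REV-ERBα) closes an auxiliary loop by repressing ARNTL, DBP carries the rhythm to output genes, and BHLHE40 (DEC1) competes with the ARNTL pair for the same promoter element. In rodent granulosa cells the clock is set by gonadotropins and is known for acting on genes of steroid synthesis.

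Granulosa cells were scraped from 4 P follicles and 4 G follicles of Holstein cattle, each above 9 mm in diameter and taken from slaughterhouse ovaries kept on ice. The stage of each follicle was assigned from the DNA content of its cells by flow cytometry. No follicle received a treatment, and the oestrous cycle stage of the animals was unknown. The hour of collection is not given in the sources used here, although the level of a clock gene depends on it in a rhythmic tissue. The RNA of each follicle was linearly amplified before labelling. Each of the 4 pairs of 1 P and 1 G follicle was hybridised to 2 arrays with the dyes exchanged, so that every follicle was read once in Cy3 (green) and once in Cy5 (red). The 4 follicles of a stage were biological replicates, but whether they came from 4 animals was not stated. How the partners of a pair were chosen was not stated either, so a pair means only 2 follicles read on the same arrays.

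A level is given below as the log2 intensity of a probe after normalisation, averaged over the 2 dyes of the follicle, and a ratio as the P level minus the G level of a pair. A reading is the intensity of 1 probe in 1 dye on 1 array, and it was taken as above background when it lay more than 2 SD above the average of the 757 control spots that are negative or dark. Between 59.5 and 79.1% of probes were above background in Cy3 and between 56.6 and 66.3% in Cy5, with median intensities of 285 to 435 in Cy3 and 186 to 285 in Cy5. A change was called by the criterion of the study, a fold above 1.5 either way on a probe whose log2 intensity averaged 7 or more, with an unadjusted p under 0.05. Of all probes, 297 (0.678%) met it in the fit used here, with the 2 arrays of a pair averaged, 131 higher and 166 lower in P. In that fit no probe had an adjusted p under 0.05 by limma, against 1152 probes (2.63%) with an unadjusted p under 0.05. With the 8 arrays taken as independent, 714 probes met the criterion. The paper, from its own fit, reports more genes for this contrast.

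The P follicle of pair 3 stood furthest from the others in granulosa and in smooth muscle and fibroblast markers. The mean log2 level of 9 granulosa markers was 13.23, 10.28, 9.56 and 13.11 in the P follicles of pairs 1 to 4, against 11.57, 11.18, 13.24 and 12.77 in the G follicles. The mean level of 11 smooth muscle and fibroblast markers was 8.67, 9.92, 11.96 and 9.48 in the P follicles, against 9.35, 9.97, 9.25 and 9.05 in the G follicles. In pair 3 the median ratio was -4.34 for the granulosa list and 3.01 for the smooth muscle and fibroblast list. The P follicle of pair 2 was also low in granulosa markers. The mean level of 11 leukocyte markers was 7.72, 8.69, 8.87 and 8.02 in the P follicles, against 7.91, 8.02, 7.86 and 7.81 in the G follicles, so that the P follicles of pairs 2 and 3 were the highest. In these bulk samples, fewer cells of a type and less RNA per cell cannot be told apart. Values that moved much without pair 3 are therefore given with and without it. Without that pair 419 of all probes (0.957%) met the criterion, or 1.57% of genes by their brightest probe.

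None of the 9 clock genes met the criterion, and none had an unadjusted p under 0.05 by limma. The adjusted p was 0.9999 for every clock gene (limma, Benjamini-Hochberg over all probes). By their means, 6 genes were higher and 3 lower in P, with a median ratio of 0.01, against -0.002 over all probes. The median absolute ratio was 0.05 for the clock genes and 0.09 over all probes, and the median SD among the 4 pairs was 0.28 for the clock genes and 0.25 over all probes. In 7 of the 9 genes the SD among pairs was larger than the mean ratio. Over the 9 genes, the means of the deposited log2 ratios ran from -0.07, for CRY1, to 0.11, for DBP. The levels of the P and G follicles overlapped for all 9 genes, while the 2 stages did not overlap for 1.41% of all probes.

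**Figure D1:**
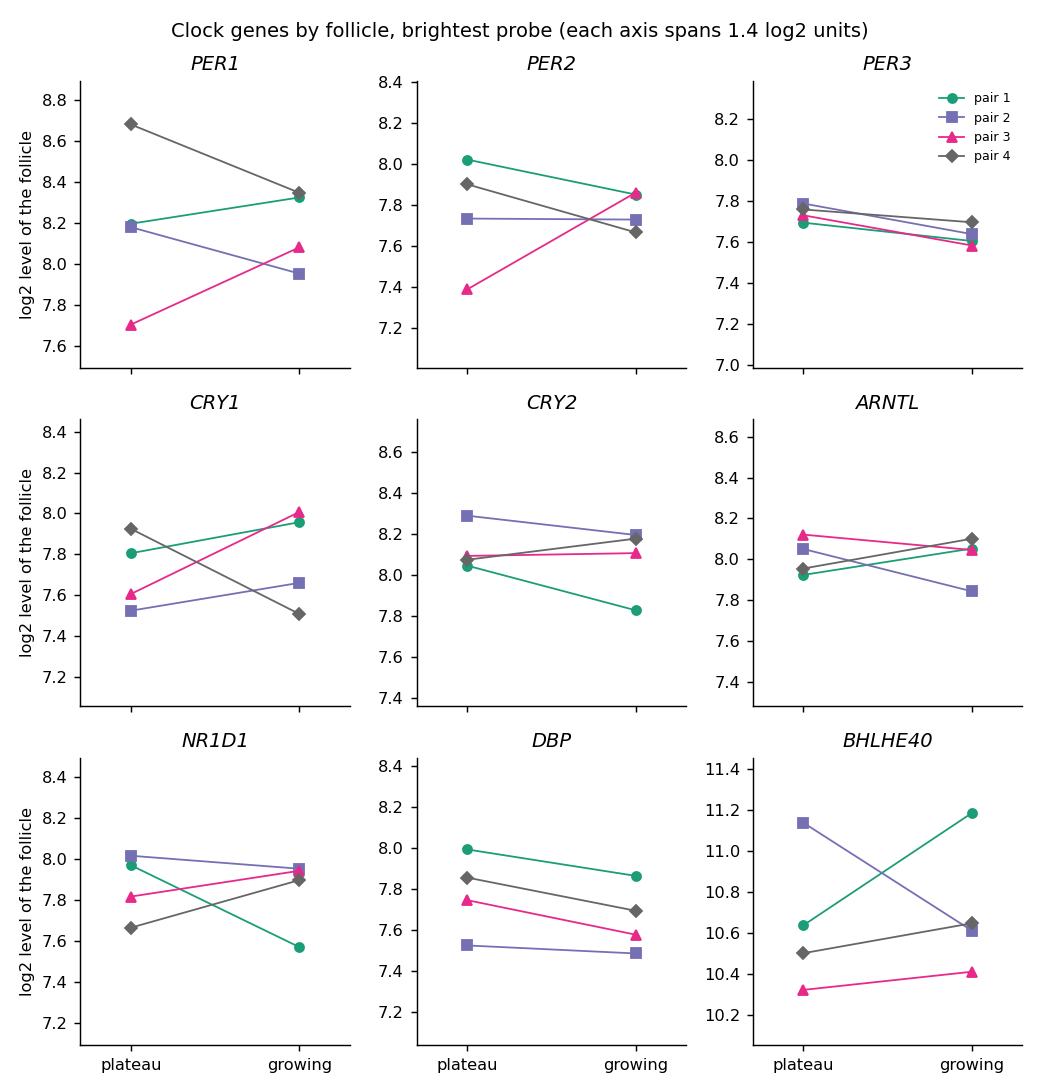
Log2 level of each clock gene, by its brightest probe, in the P and the G follicle of each of the 4 pairs. Each line joins the 2 follicles of a pair and each panel spans the same 1.4 log2 units. The lines of PER3 and DBP all descend from P to G, and those of the other genes cross.

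Most clock genes were dim on this array. Of the 144 readings of the 9 genes, 81 (56.25%) were above background, against 66.6% over all probes. The count was 41 of 72 readings in P and 40 of 72 readings in G. BHLHE40 alone was above background in all 16 readings, a property of 36.9% of all probes and of 7578 of 15216 genes by brightest probe. The shares over all probes include probes that are not the brightest of a gene or carry no gene symbol. The mean ratio of a dim probe can understate a difference between samples, since the background forms part of each reading.

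**Figure D2:**
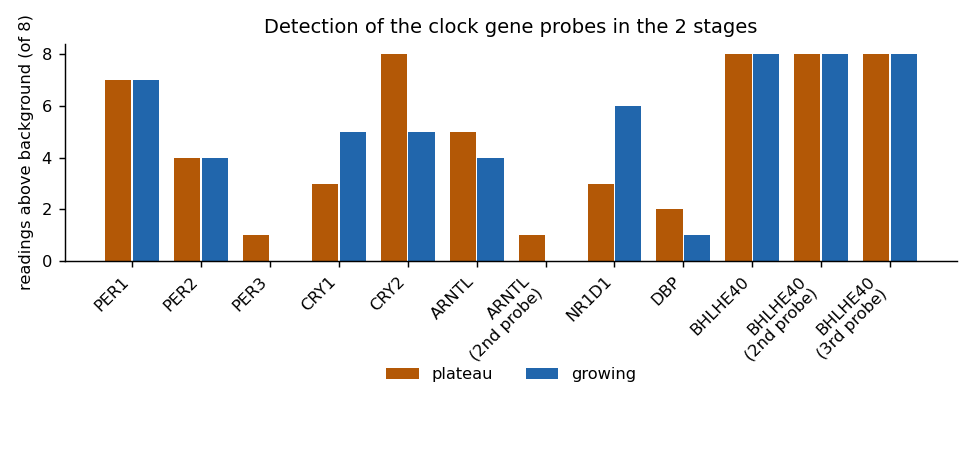
Number of readings above background, of 8 per stage, for each of the 12 clock gene probes, with P beside G. The BHLHE40 probes reached 8 of 8 in both stages, while PER3 and the second ARNTL probe reached 1 of 8 in P and 0 of 8 in G.

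ARNTL is the member of the activating pair that no other gene fully replaces in the mouse clock. Its brightest probe (EMBV3_04380) had log2 levels of 7.92, 8.05, 8.12 and 7.96 in the P follicles of pairs 1 to 4, against 8.05, 7.84, 8.05 and 8.10 in the G follicles. All 8 follicles lay within 0.3 log2 units, and the P follicle was the higher one in pairs 2 and 3. Their ratios averaged 0.00 ± 0.17 (SD, n = 4 pairs), with a 95% interval of -0.26 to 0.26. Readings were above background in 5 of 8 cases in P and 4 of 8 in G.

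The unnormalised intensities of this ARNTL probe followed the dye more than the stage. With P in Cy5 and G in Cy3, they were 159, 267, 176 and 197 in the P follicles and 476, 372, 441 and 379 in the G follicles. With the dyes exchanged, they were 302, 435, 319 and 389 in the P follicles and 255, 184, 198 and 201 in the G follicles. The Cy3 reading was thus the higher one on every array. After normalisation the mean ratio was -0.36 on the slide with P in Cy5 and 0.36 on the slide with G in Cy5. Among the 9 clock genes, 7 had ratios of opposite sign on the 2 slides, as did 54.6% of all probes.

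A second ARNTL probe (EMBV3_24657) was dimmer. It had levels of 7.53, 7.59, 7.33 and 7.63 in the P follicles and 6.98, 7.74, 7.23 and 7.09 in the G follicles. No G reading and 1 P reading were above background. Its mean ratio was 0.26 ± 0.34 (SD, n = 4 pairs), and no fold is given because the P level did not exceed the detection limit on the G side.

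The PER genes encode the period proteins, which join the CRY proteins in repressing the ARNTL pair. PER1 (EMBV3_00394), the member whose transcription answers most directly to hormones and cAMP, had levels of 8.20, 8.18, 7.71 and 8.68 in the P follicles, against 8.33, 7.95, 8.08 and 8.35 in the G follicles. The P follicles held both the lowest and the highest of the 8 levels. The pairs averaged 0.01 ± 0.33 (SD, n = 4 pairs), with a 95% interval of -0.37 to 0.40, and 0.14 without pair 3. PER1 was above background in 7 of 8 readings in each stage.

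PER2 (EMBV3_25521) had levels of 8.02, 7.74, 7.39 and 7.90 in the P follicles and 7.85, 7.73, 7.86 and 7.67 in the G follicles. The 2 stages differed mainly in pair 3, where the ratio was -0.47, while the other pairs had ratios of 0.17, 0.00 and 0.23. The mean ratio was -0.02 ± 0.32 (SD, n = 4 pairs), and it was 0.14 without pair 3. Readings above background numbered 4 of 8 in P and 4 of 8 in G.

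PER3 (EMBV3_12946), which is dispensable for the rhythm in mice, had levels of 7.69, 7.79, 7.73 and 7.76 in the P follicles and 7.60, 7.64, 7.58 and 7.69 in the G follicles. The P follicle was the higher one in every pair, but the lowest P level lay just below the highest G level. The mean ratio was 0.11 ± 0.04 (SD, n = 4 pairs), with a 95% interval of -0.08 to 0.31. The interval is that of limma, which draws the SD of a probe toward that of all probes. It is wider here than the printed SD alone would give. Only 1 P reading and no G reading were above background. No fold is given, because the gene was close to the floor of the array in both stages.

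The CRY proteins are the main repressors of the loop. CRY1 (EMBV3_20233) had levels of 7.81, 7.53, 7.61 and 7.93 in the P follicles, against 7.96, 7.66, 8.01 and 7.51 in the G follicles. The P follicle was the lower one in pairs 1 to 3 and the higher one in pair 4, by 0.42. Over the pairs the mean was -0.07 ± 0.34 (SD, n = 4 pairs), with a 95% interval of -0.47 to 0.33. The sign changed with the dye, with a mean of 0.37 on the slide with P in Cy5 and -0.50 on the slide with G in Cy5. The mean was 0.04 without pair 3.

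CRY2 (EMBV3_05151) had levels of 8.05, 8.29, 8.09 and 8.07 in the P follicles and 7.83, 8.20, 8.11 and 8.18 in the G follicles. It was above background in 8 of 8 readings in P and 5 of 8 in G. The G follicle of pair 1 was the lowest of the 8, and the mean ratio was 0.05 ± 0.14 (SD, n = 4 pairs), or -0.01 without that pair. The 95% interval was -0.19 to 0.29. As for CRY1, the sign changed with the dye, with a mean of -0.21 with P in Cy5 and 0.31 with G in Cy5.

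NR1D1 (EMBV3_05903), a nuclear receptor for haem that represses ARNTL, had levels of 7.97, 8.02, 7.82 and 7.66 in the P follicles and 7.57, 7.95, 7.94 and 7.90 in the G follicles. The G follicle of pair 1 lay apart from the other G follicles, and the lowest P follicle was that of pair 4. The ratio averaged 0.03 ± 0.28 (SD, n = 4 pairs), with a 95% interval of -0.32 to 0.37, and it was -0.10 without pair 1. Readings were above background in 3 of 8 cases in P and 6 of 8 in G.

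DBP (EMBV3_00349), an activator of output genes and a direct target of the ARNTL pair, had levels of 7.99, 7.52, 7.74 and 7.85 in the P follicles, against 7.86, 7.48, 7.58 and 7.69 in the G follicles. Like PER3 it was higher in the P follicle of every pair, by 0.13, 0.04, 0.17 and 0.16. These averaged 0.12 ± 0.06 (SD, n = 4 pairs), with a 95% interval by limma of -0.08 to 0.33, again wider than this SD alone would give. The follicles of pair 1 were the highest of their stage and those of pair 2 the lowest. Partners shared their arrays, so differences among pairs and among arrays cannot be told apart. Only 2 P readings and 1 G reading were above background. PER3 and DBP were the 2 of the 9 clock genes that moved the same way in every pair, both higher in P. Of all probes, 9.76% moved the same way in every pair, 4.79% higher and 4.96% lower in P.

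**Figure D3:**
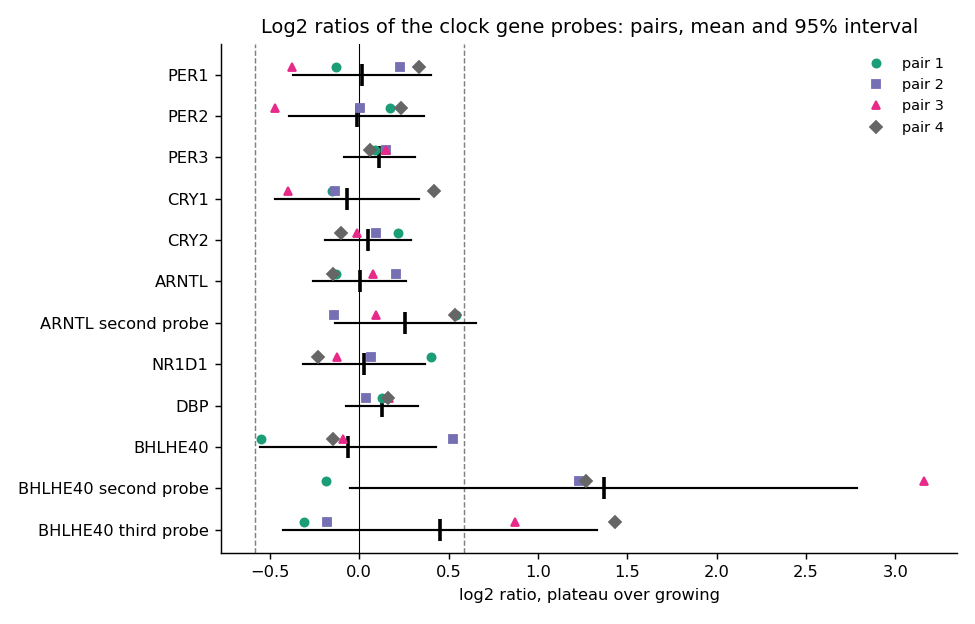
Log2 ratio, P over G, of the 12 clock gene probes. Points are the 4 pairs, the black tick is the mean, the line its 95% interval from limma, and the dashed lines a fold of 1.5 in either direction. Every interval includes 0, and only the second and the third BHLHE40 probe have pairs beyond a ratio of 0.6.

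BHLHE40 encodes a helix-loop-helix repressor that is induced by many signals, among them cAMP and hypoxia, besides being part of the clock. It was the only clock gene well within the measured range, and its 3 probes did not give the same account. On the brightest probe (EMBV3_04551) the levels were 10.64, 11.14, 10.32 and 10.50 in the P follicles, against 11.19, 10.61, 10.41 and 10.65 in the G follicles. Pairs 1 and 2 moved in opposite directions, with ratios of -0.55 and 0.53. The 4 ratios averaged -0.06 ± 0.44 (SD, n = 4 pairs), with a 95% interval of -0.56 to 0.43, and it was 0.10 without pair 1.

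On the second probe (EMBV3_03085) the levels were 9.54, 10.44, 13.40 and 11.54 in the P follicles, against 9.73, 9.21, 10.24 and 10.27 in the G follicles. The P follicle was clearly the higher one in pairs 2, 3 and 4, and slightly the lower one in pair 1. In pair 3 the unnormalised intensities were 9713 (Cy5) and 12729 (Cy3) in the P follicle, against 1337 (Cy3) and 1155 (Cy5) in the G follicle, so both dyes gave the difference. The pair ratios were -0.19, 1.23, 3.16 and 1.27, with a mean of 1.37 ± 1.37 (SD, n = 4 pairs) and a 95% interval of -0.05 to 2.79. The interval included 0, and the probe missed the criterion, with an adjusted p of 0.9999 by limma. Of all probes, 3.27% had a larger SD among pairs.

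The mean of the second probe was 0.77 without pair 3, which still missed the criterion. It was 1.89 without pair 1, which met it. The criterion was also met within each slide, and when the 8 arrays of the 4 pairs were fitted singly, so that dye swaps entered as separate values. The P follicle of pair 3, where this probe was highest, is the one with the lowest granulosa markers and the highest smooth muscle and fibroblast markers. The part of cell composition in this ratio was not tested. The mean was 1.33 with P in Cy5 and 1.41 with G in Cy5, so it did not turn on the dye.

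On the third probe (EMBV3_10259) the levels were 8.49, 8.94, 9.84 and 10.38 in the P follicles and 8.80, 9.12, 8.97 and 8.95 in the G follicles. The P follicles of pairs 3 and 4 were the highest, above every G follicle, and those of pairs 1 and 2 lay below their G partners. The mean ratio was 0.45 ± 0.84 (SD, n = 4 pairs), with pair ratios of -0.31, -0.18, 0.87 and 1.43. With 1 pair left out, the mean was 0.71, 0.66, 0.31 and 0.13 without pairs 1, 2, 3 and 4, and none of these met the criterion.

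Over the 8 follicles, the levels on the second and the third probe had a Pearson r of 0.74, while the brightest probe had an r of -0.48 with each of them. These values describe 3 probes read on the same arrays and carry no test. With the 3 probes averaged, the mean ratio of BHLHE40 was 0.59, which missed the criterion. Which transcript or which part of it each probe reads is not given in the sources used here.

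**Figure D4:**
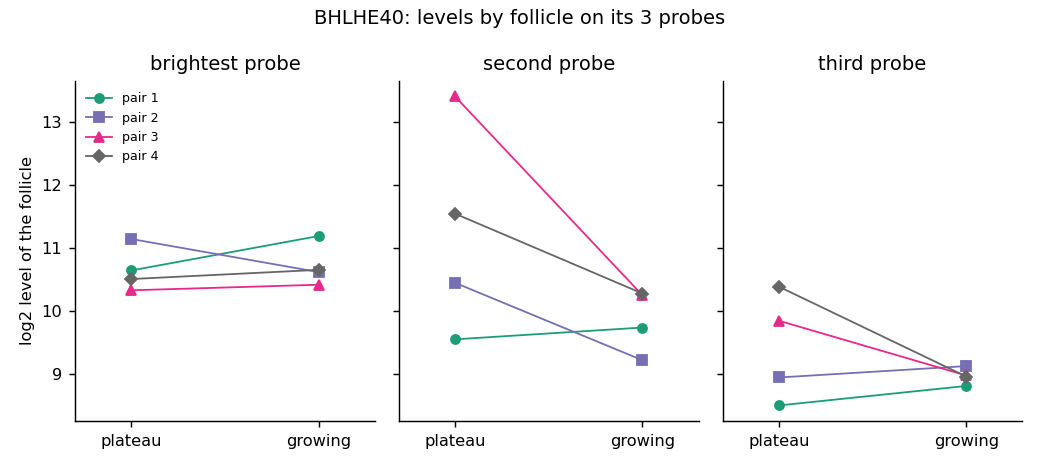
Log2 level of BHLHE40 on its 3 probes in the P and the G follicle of each pair, on a shared axis. The second probe reaches 13.40 in the P follicle of pair 3, the third probe 10.38 in the P follicle of pair 4, and on the brightest probe the stages overlap throughout.

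BHLHE40 had the widest spread of level among follicles of the 9 genes by brightest probe, with an SD of 0.32 over the 8 follicles. Among 7578 genes above background in all readings, those whose levels were most like those of its brightest probe were DDX6 (r = 0.99), an RNA helicase of mRNA decay, CDKN1B (r = 0.98), a cell cycle inhibitor, and INPP5B (r = 0.97), an inositol phosphatase. POLR3F, a subunit of RNA polymerase III, and ITGB3BP, a centromere protein, followed at r = 0.96 each. The genes most like the other two probes, looked up after their values had been seen, were others. They were MYO1D (r = 0.98), CDV3 (r = 0.98) and CTPS1 (r = 0.97) for the second probe and SMG9 (r = 0.99), DCAF15 (r = 0.97) and HLCS (r = 0.96) for the third. All of these are descriptions over 8 follicles that share arrays, picked as the highest of many, with no test.

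In a running clock the activating and repressing members peak at different hours, so their levels were also compared with one another over the 8 follicles. Among the 36 gene pairs, 3 had an unadjusted p under 0.05 and none an adjusted p under 0.05 (exact permutation test of Pearson's r, two-sided, Benjamini-Hochberg over the 36). After loess alone, with the overall brightness of each array left in place, 28 of the 36 had an adjusted p under 0.05. The test treats the 8 follicles as exchangeable, although the P and the G follicle of a pair share their arrays, and its p-values do not allow for that. The highest r was that of CRY2 with NR1D1, at 0.80 (exact p = 0.0127, adjusted 0.459), with a Spearman rho of 0.62 (exact p = 0.115). It was 0.30 without the 2 follicles farthest from the median of CRY2, so it rested on those follicles. CRY2 with DBP had an r of -0.70 (exact p = 0.0418, adjusted 0.502) and a rho of -0.93 (exact p = 0.00223, adjusted 0.0804), and r was -0.82 without the 2 farthest follicles. CRY1 with CRY2 had an r of -0.69 (exact p = 0.0401, adjusted 0.502), a rho of -0.60 (exact p = 0.132) and an r of -0.83 without the 2 farthest.

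Of the PER genes, which share the ARNTL pair as activator, PER1 with PER2 had an r of 0.64 (exact p = 0.0907, adjusted 0.653), a rho of 0.45 (exact p = 0.267) and an r of -0.01 without the 2 farthest follicles. PER1 with PER3 had an r of 0.18 (exact p = 0.678, adjusted 0.972), a rho of 0.19 (exact p = 0.665) and an r of 0.20 without the 2 farthest. PER2 with PER3 had an r of -0.25 (exact p = 0.575, adjusted 0.972), a rho of -0.19 (exact p = 0.665) and an r of -0.21 without the 2 farthest. PER2 with CRY1 had an r of 0.63 (exact p = 0.0811, adjusted 0.653), a rho of 0.67 (exact p = 0.0831) and an r of 0.93 without the 2 farthest. ARNTL had an r of -0.18 with its repressor NR1D1 (exact p = 0.683, adjusted 0.972), a rho of -0.43 (exact p = 0.299) and an r of 0.35 without the 2 farthest. The genes of these pairs were read on the same arrays, and most lay near the background.

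The rest of the clock machinery was followed in a list of 37 other clock genes, of which 31 were measured. Of these 31, 20 were above background in all readings, as were 7578 of all 15216 genes by brightest probe. None of the 31 met the criterion and none had an unadjusted p under 0.05. By their means 12 were higher and 19 lower in P, and the median ratio was -0.05 (range -0.53 to 0.37). The count of higher and lower genes was 15 and 16 without pair 3, with a median of -0.00. Individual pairs moved much further than the means. For 4 of the 31 genes the SD among pairs was above 1, as for 7.36% of all probes.

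NPAS2, the relative of CLOCK that can take its place beside ARNTL, had the most negative mean over the 4 pairs. Its levels were 10.46, 9.17, 8.54 and 10.56 in the P follicles and 9.78, 10.86, 10.43 and 9.78 in the G follicles. The P follicle was the higher one in pairs 1 and 4 and the lower one in pairs 2 and 3, with a mean ratio of -0.53 ± 1.46 (SD, n = 4 pairs), which was -0.076 without pair 3. BHLHE41 (DEC2), the close relative of BHLHE40, had levels of 8.54, 9.52, 8.59 and 10.46 in the P follicles and 11.03, 8.19, 8.45 and 9.15 in the G follicles. Its pair ratios were -2.49, 1.33, 0.15 and 1.31, with a mean of 0.07 ± 1.80 (SD, n = 4 pairs). CSNK1E, a kinase that marks PER proteins for breakdown, had pair ratios of -1.96, -0.73, 1.53 and 0.97 and a mean of -0.05 ± 1.60 (SD, n = 4 pairs), which was -0.57 without pair 3. BHLHE41 and CSNK1E were chosen for their spread after their values had been seen.

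NFIL3, a repressor at the elements that DBP activates, had the most positive mean over the 4 pairs, at 0.37 ± 0.79 (SD, n = 4 pairs), with a ratio of 1.49 in pair 3. Without that pair its mean was 0.0025, and that of CREBBP, a histone acetyltransferase, was the highest at 0.33, while SFPQ and CSNK1E were the lowest. RORA, an activator of ARNTL, had a mean ratio of 0.27 ± 0.23, positive in 3 of 4 pairs, and was above background in 6 of 8 readings in P and 3 of 8 in G. NR1D2, the relative of NR1D1, named after its values had been seen, had a mean ratio of -0.07 ± 0.23. Among the genes of PER and CRY breakdown, CUL1 and SKP1, parts of a ubiquitin ligase, had means of -0.39 ± 0.60 and -0.23 ± 0.53, and DDB1, an adaptor of another ligase, had 0.23 ± 0.45. CUL1 was at -0.11 without pair 3. PRKAA2, a catalytic subunit of AMP-activated kinase, which marks CRY1 in mouse cells, had a mean of -0.41 ± 0.81, which was -0.045 without pair 3.

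SFPQ, a splicing factor that joins the PER complex, was the only one of the 31 whose call changed without pair 3, where 1.57% of all genes met the criterion. Its levels were 12.46, 13.25, 13.42 and 12.70 in the P follicles, against 13.00, 13.93, 12.91 and 13.32 in the G follicles. The P follicle was lower in pairs 1, 2 and 4 and higher in pair 3. The mean ratio was -0.34 ± 0.56 (SD, n = 4 pairs), and without pair 3 it was -0.62 ± 0.07 (SD, n = 3 pairs), which met the criterion with an adjusted p of 0.9999 by limma. Pair 3 was left out after the data had been seen.

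**Figure D5:**
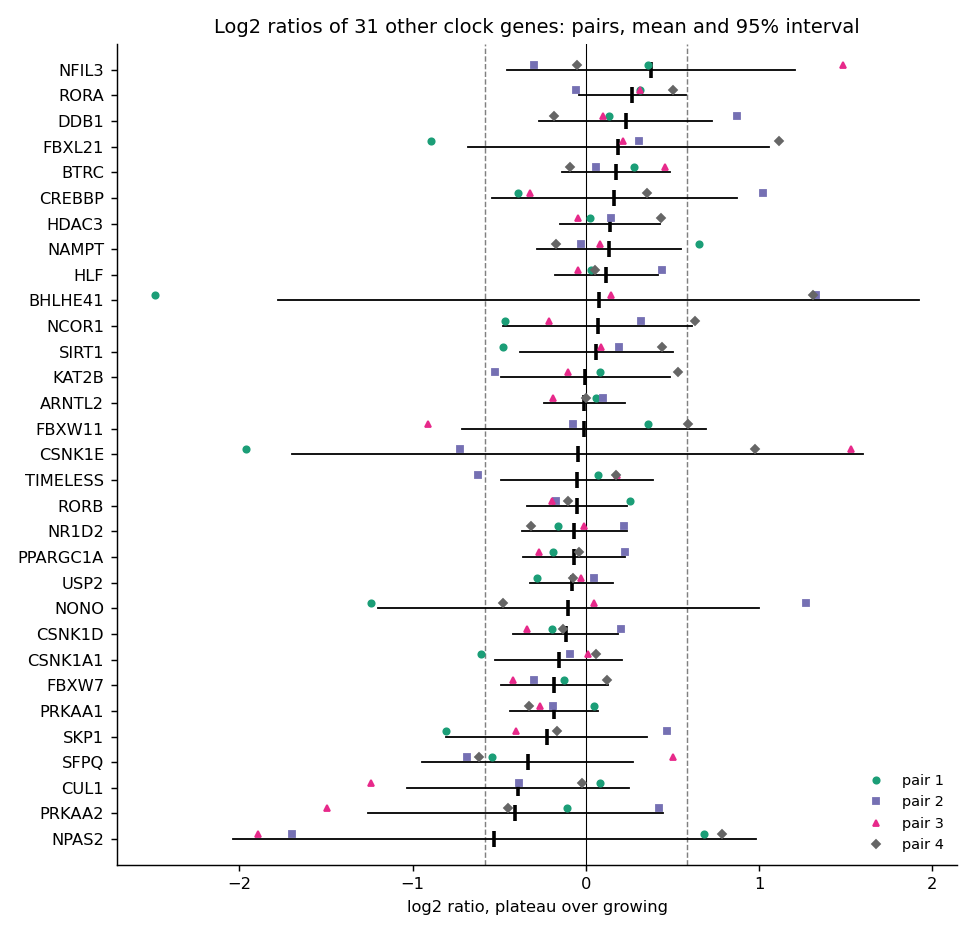
Log2 ratio, P over G, of the 31 other clock genes, each by its brightest probe, ordered by mean. Points are the 4 pairs, ticks the means, lines the 95% intervals from limma and dashed lines a fold of 1.5 in either direction. All intervals include 0, and BHLHE41, CSNK1E and NPAS2 are among the genes with pairs beyond the dashed lines on both sides.

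Inputs that reset the clock in cultured cells were followed in separate lists. Of 9 measured genes induced by glucocorticoids, PER1 among them, 5 were higher and 4 lower in P, with a median ratio of 0.01 and none meeting the criterion. Those with the largest means were SGK1, a kinase, at 0.87 ± 3.76 (SD, n = 4 pairs, with 6.17 in pair 3), and TSC22D3, an anti-inflammatory leucine zipper protein, at -0.68 ± 0.99. Without pair 3, SGK1 was at -0.89, so its sign turned, and 4 genes of the list were higher and 5 lower, with a median of -0.23. Of 18 measured immediate early genes, 15 had a positive mean and 3 a negative one, with a median ratio of 0.51, against -0.002 over all probes. None met the criterion, beside 1.03% of all genes by brightest probe. The median was -0.60, 1.41, 1.13 and -0.05 in pairs 1 to 4, so it was carried by pairs 2 and 3. CCN1, a matrix protein, had a mean of 1.93 ± 2.50 and NR4A1, an orphan nuclear receptor, 1.61 ± 2.20 (SD, n = 4 pairs). Without pair 3 the mean of CCN1 was 1.09. Without pair 3, 14 of the 18 had a positive mean and 4 a negative one, with a median of 0.40. JUN, higher at 0.61 ± 0.38, and FOS, lower at -0.96 ± 0.33 (SD, n = 3 pairs), both parts of the AP-1 factor, then met the criterion, beside 1.57% of all genes. With all pairs kept, JUN was higher in P in each of them, at 0.56 ± 0.32 (SD, n = 4 pairs). Its unadjusted p was 0.0125 by limma (adjusted 0.9999), where 2.63% of all probes had one under 0.05. It missed the criterion by its fold of 1.48.

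A list of 5 ovarian genes that have been tied to the clock in other species held genes of steroid and prostaglandin synthesis and the receptor gene LHCGR. Of these 5, STAR met the criterion, where 1.03% of all genes did so by their brightest probe. STAR, CYP19A1 and PTGS2 had 3 probes each and LHCGR 2, and only the brightest of each gene is given here. STAR, which carries cholesterol into mitochondria, had pair ratios of 1.44, 0.29, 4.29 and 2.50 and a mean of 2.13 ± 1.70 (SD, n = 4 pairs), with an adjusted p of 0.9999 by limma. CYP11A1, the side-chain cleavage enzyme, had a mean of 0.15 ± 2.20, and aromatase (CYP19A1) -0.64 ± 4.48, with -6.97 in pair 3. LHCGR, the receptor for luteinising hormone, had a mean of 0.26 ± 2.12 and PTGS2, the inducible cyclooxygenase, 0.15 ± 0.25 (SD, n = 4 pairs). Without pair 3 the mean was 0.96 for CYP11A1 and 1.48 for CYP19A1. Without pair 3, all 5 had a positive mean, and STAR, at 1.41 ± 1.11, and LHCGR, at 1.24 ± 0.98 (SD, n = 3 pairs), met the criterion. STAR and LHCGR also belong to the list of 8 theca markers, in which no other gene met it with or without that pair. Of the 8, 4 had a positive and 4 a negative mean, with a median of 0.02. Without pair 3, 7 were positive and 1 negative, with a median of 0.19. CYP17A1 and INSL3, of that list, had means of -0.28 and -0.37, or -0.10 and 0.07 without pair 3. LHCGR was above background in 5 of 8 readings in each stage.

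Markers of other cells were read beside these lists. By brightest probe, 1.03% of all genes met the criterion, and 1.57% did so without pair 3. LYZ, of leukocytes, met it at 0.61 ± 0.42 (SD, n = 4 pairs), though not without pair 3. LYZ was above background in 5 of 8 P readings and 1 of 8 G readings, so it lay near the floor in G. Of 11 leukocyte markers 10 had a positive mean, with a median of 0.38, against 9 of 11 and a median of 0.21 without pair 3. Of 11 smooth muscle and fibroblast markers 10 had a positive mean and none met the criterion, with CNN1 at 1.98 ± 2.85. Without pair 3, CNN1 was at 0.67, 5 of the 11 had a positive mean, and LUM met the criterion at -1.30 ± 0.40 (SD, n = 3 pairs). Of 9 granulosa markers 8 had a negative mean, with a median of -0.64, while 7 had a positive mean and the median was 0.41 without pair 3. None of 8 endothelial, 5 red blood cell and 6 oocyte markers met the criterion over the 4 pairs. Of the oocyte markers, GDF9 alone was above background in no reading. BMP15 was above it in 7 of 8 P and 8 of 8 G readings, and ZP3 in 5 and 8. ZP4 was above it in 6 and 5, ZP2 in 3 and 3, and DPPA3 in 1 and 3. Of the endothelial markers 5 had a positive mean and 3 a negative one, with a median of 0.004, or 0.038 without pair 3. KDR, an endothelial receptor, had a mean of -1.08 ± 1.88, and met the criterion without pair 3 at -1.88 ± 1.22 (SD, n = 3 pairs). KDR was above background in 5 of 8 P readings and 4 of 8 G readings. The part of these cells in the clock gene levels was not tested.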

How the data were processed

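Granulosa RNA of 4 P and 4 G follicles was read on 8 EmbryoGENE 2-colour arrays, 4 on each of 2 slides with opposite dyes. The authors scanned the arrays and deposited median spot intensities, with spots obstructed by debris excluded by hand (12 to 30 of 45220 per array). They also deposited a table of log2 ratios, Cy5 over Cy3, after background subtraction, loess and quantile normalisation. Its gene and array centring are not stated. Its column medians were -0.0273 to -0.00273, its values followed the recomputed Cy5 over Cy3 ratios (r = 0.9997 to 0.9999 over all probes), and its means were used as an alternative. A deposited column marks the excluded spots.

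For the values given here, normexp (offset 50) corrected the intensities, which were normalised within arrays by loess and between arrays by quantiles, and turned to P over G with limma 3.58.1 in R 4.3.3. The 2 arrays of a pair, those with the same position on both slides, were averaged. Same-position arrays deviated together (r = 0.756 to 0.875), and other positions did not (r = -0.436 to -0.124). Each mean of 4 pairs was tested against 0 with lmFit and eBayes, and p-values were adjusted over 43794 probes by the Benjamini-Hochberg method. The p-values measure the spread among these follicle pairs only, and the number of arrays limits the precision. Exact permutation tests over all orders of the follicles were computed with NumPy 2.4.6. Ranks came from SciPy 1.17.1 and the adjustment over gene pairs from statsmodels 0.14.6. The statistics were tested on simulated data.

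A gene was represented by its brightest probe, the one with the highest mean log2 intensity. Probes with 1 symbol numbered 21790, on 15216 genes after 1545 older symbols had been updated, and none had several. The text names all clock genes, the 8 other clock genes with the largest absolute ratio, up to 3 genes of each further list that met the criterion or else the 2 with the largest ratio, and the 5 genes most like the clock gene with the widest spread. Further genes are marked as chosen later or complete a short list, and those called or ranked only without pair 3 were named after their values had been seen. The members and lists were chosen with earlier results of these data known. Alternatives covered the background correction, the normalisation, the deposited table, a filter on dim probes, single slides, other fits and each pair left out. The list values without pair 3 were added after the data had been seen. Gene sequences were not used here.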

Additional observations from a re-analysis of the deposited data

Results flagged for a closer look

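In the 36 groups of 4 values examined (levels in P and in G and ratios of the clock gene probes), 1 held a value far from the others. It was the NR1D1 level of the G follicle of pair 1, at 7.57, where the other G follicles lay between 7.90 and 7.95. Chance alone gives such a value in about 1 of 20 groups.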

How the results depend on the processing

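No clock gene met the criterion under any of the alternatives run, each gene by its brightest probe. The second BHLHE40 probe met it, at a mean of 1.37, when all 8 arrays were fitted with a dye term and the pair as a random block or taken as independent, both of which fit 8 arrays of only 4 pairs, on each slide alone (1.33 and 1.41) and without pair 1. The 297 probes meeting the criterion became 673 with the random block, 714 with independent arrays, 1049 and 851 on the slides with P and with G in Cy5, and 338 to 1538 with 1 pair left out (1538 without pair 1, 807 without pair 2, 419 without pair 3). In an unpaired fit, with no replicate block, there were 305 and none among the clock genes. Correlated gene pairs numbered 28 of 36 after loess alone, which leaves the overall brightness of each array in place, and 0 under the other alternatives. Signs turned where means were near 0. ARNTL was -8.04e-05 with plain subtraction and -0.00018 in the deposited table, and PER1 was -0.077 after loess alone. With P in Cy5 only, PER2 was 0.060, CRY1 0.37, CRY2 -0.21 and ARNTL -0.36. With G in Cy5 only, PER1 was -0.017, NR1D1 -0.0071 and BHLHE40 0.13. BHLHE40 was 0.59 over its 3 probes. With 1 pair left out, ratios ranged from -0.093 to 0.14 for PER1, -0.099 to 0.14 for PER2, -0.23 to 0.043 for CRY1, -0.0075 to 0.10 for CRY2, -0.066 to 0.051 for ARNTL, -0.098 to 0.11 for NR1D1 and -0.26 to 0.10 for BHLHE40, and from 0.77 to 1.89 and 0.13 to 0.71 for the second probe and the third probe of that gene. The cause of these changes was not tested. PER3 and DBP stayed positive throughout. Apart from BHLHE40, the clock genes lay near the background, which limits the size of any measured ratio. Searches of promoters for clock motifs were not run.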
